A study of Mus musculus with 30 samples.

Results

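The subunits of the mitochondrial respiratory chain that are encoded in the nucleus were followed in sorted mouse astrocytes after stroke and after systemic inflammation. Members were taken by symbol from the array annotation, as every gene whose symbol starts with Nduf, Sdha, Sdhb, Sdhc, Sdhd, Uqcr, Cox4, Cox5, Cox6, Cox7, Cox8 or Atp5, a rule that uses no measured value. The rule found 94 genes among the 15726 genes tested. All 94 passed the filter on low values, which asked for a log2 intensity of at least 5 on at least 3 arrays. Complex I had 34 members, complex II had 4, complex III had 8, complex IV had 19 and complex V had 17. The remaining 12 members were assembly factors, Ndufaf1 to Ndufaf8 and Sdhaf1 to Sdhaf4, which help to build complexes I and II and are not part of them. Ndufa4 and Ndufa4l2 were counted with complex IV, where their products are now placed.

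The respiratory chain sits in the inner mitochondrial membrane. Complex I takes electrons from NADH and complex II takes them from succinate, complex III passes them to cytochrome c and complex IV hands them to oxygen, while complex V is the ATP synthase that uses the resulting proton gradient. Astrocytes are known for a high rate of glycolysis, and their mitochondria also carry out oxidative phosphorylation and fatty acid oxidation. A few subunits of complex IV exist as tissue or oxygen-dependent isoforms, among them Cox4i2, Cox6a2, Cox7a1, Cox8b and Ndufa4l2.

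All mice were young adult males of the strain Tg(Aldh1l1-eGFP) OFC789Gsat on a Swiss Webster background, in which the Aldh1l1 promoter drives green fluorescent protein in astrocytes. Brains were dissociated with papain, and cells carrying the reporter were sorted by flow cytometry. Stroke was modelled by middle cerebral artery occlusion (MCAO), an occlusion of 1 hour followed by reperfusion, and its control was sham surgery. Cells were taken after 1 day (5 MCAO and 4 sham arrays), 3 days (3 and 3) and 7 days (3 and 3). Inflammation was induced by an injection of 5 mg/kg lipopolysaccharide (LPS), a bacterial outer membrane component, into the peritoneum, with saline as the control, and cells were taken after 1 day (5 LPS and 4 saline arrays). RNA input was about 20 ng, amplified over a pair of cycles before hybridisation, and the 30 arrays gave 1 value per probe set. The labels call the arrays of a group biological replicates, but do not say whether each array came from its own mouse. The p-values therefore rest on the scatter of these samples alone, which may not be the scatter between mice. Each value is a log2 intensity of sorted cells in bulk, in which fewer cells of a type and less RNA per cell cannot be told apart.

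The defining astrocyte markers were bright in all groups, with Aldh1l1 between 12.31 and 12.85 (log2 intensity) on the 1-day surgery arrays and Gfap between 12.03 and 14.24. The highest intensity on an array was above 30000 on 16 arrays and below it on 14. All 1-day surgery arrays were in the bright set and all 7-day arrays in the dim set, whereas the 3-day, LPS and saline groups held arrays of both sets. Several arrays stood apart from their group in these genes. LPS array 3 was the highest of its group for 65 of 94 members, saline array 2 for 66, and array 3 of each 3-day group for 77. The median SD between arrays of a group, over members, was 0.19 after MCAO and 0.12 after sham surgery at 1 day, but 0.66 after LPS and 0.50 after saline. The test used a variance pooled over all 8 groups, so the wide groups also set the errors of the 1-day stroke comparison. For that comparison a model of its 9 arrays alone is therefore given too.

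At 1 day after MCAO, 3 members of 94 were called lower than after sham surgery and 0 were called higher (limma, adjusted p under 0.05 over all genes). The called genes were Ndufs3 and Ndufa13 of complex I and the complex I assembly factor Ndufaf3. Over all genes tested, 6.17% were called lower and 6.49% higher, so the members' share of calls was not above that of other genes. At an unadjusted p under 0.05, 11 of 94 members were lower and 0 higher, against 12.7% and 10.7% of all genes. The median log2 fold of the 94 members was -0.28, against -0.05 over all genes, and 83 of 94 folds were negative. In 37 members every MCAO array lay below every sham array, against 15.2% of all genes, and in 0 members every MCAO array lay above, against 12.1% of all genes.

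The count of calls depended on which arrays set the error. When the 1-day surgery arrays were fitted alone, 36 of 94 members were called lower and 0 higher, against 18.4% and 14.6% of all genes. The sample names in the labels carry a second numbering, in which 4 MCAO and 4 sham arrays share numbers. With this number as a block the count was again 36, against 17.9% of all genes. The median residual SD of the members was 0.42 over all 8 groups and 0.17 within the 1-day surgery arrays. Most members are brightly detected, and bright genes as a whole also tended to lie lower at 1 day. Among genes with a mean log2 intensity of at least 10, 2 of 65 members (3.08%) were called lower, against 13.3% of all 3068 such genes. The non-overlapping lower arrays were found for 32 of these members (49.2%) and for 30% of all such genes. With the 1-day surgery arrays fitted alone, 29 of these 65 members (44.6%) were called lower, against 34.2% of all such genes. The median fold was -0.30 for those members and -0.16 for all such genes.

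**Figure D1:**
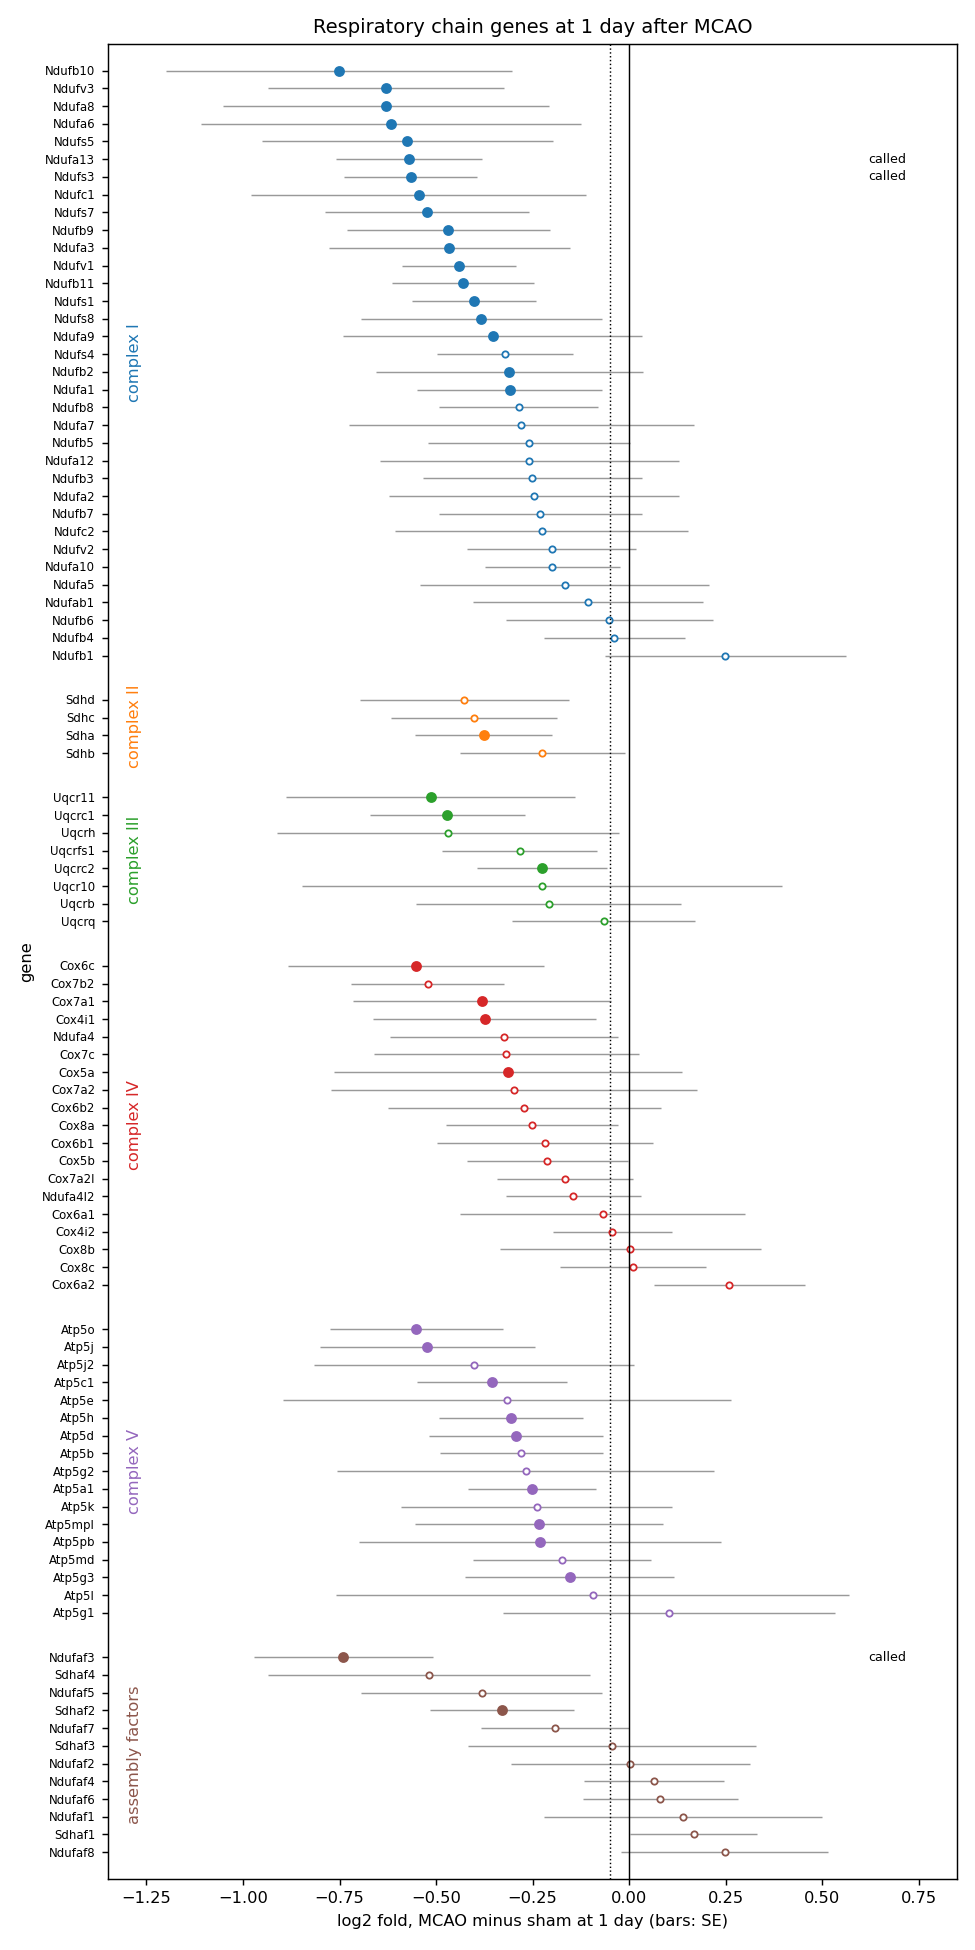
Log2 fold of each of the 94 genes between MCAO and sham arrays at 1 day, in blocks by complex and sorted within each, with bars of 1 SE from the model over all 8 groups. Filled circles mark the 37 genes whose MCAO arrays all lay below the sham arrays, the word called marks the 3 genes past the threshold, and the dotted line marks the median of all genes tested (-0.05). Points lie left of 0 for 33 of 34 genes of complex I and for 6 of 12 assembly factors.

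Core subunits of complex I carry the flavin and the iron-sulfur clusters that move electrons from NADH. Ndufs3, a core subunit of the arm that faces the matrix, had log2 intensities of 10.76, 10.62, 11.01, 10.89 and 10.98 after MCAO and of 11.43, 11.54, 11.34 and 11.36 after sham surgery. The lowest sham array thus lay above the highest MCAO array. Ndufs3 fell by 0.57 on the log2 scale (SE 0.17, adjusted p = 0.0276 in limma, 95% interval -0.92 to -0.21), which is a fall of 32.4% in intensity. Ndufv1, the subunit that binds NADH and the flavin, read 12.31, 12.40, 12.58, 12.37 and 12.60 after MCAO against 12.96, 13, 12.78 and 12.83 after sham surgery. These arrays did not overlap either, but the log2 fold of -0.44 (SE 0.15) just missed the threshold with a limma adjusted p of 0.05002. The other 2 Ndufv1 probe sets gave differences of -0.53 and -0.43. Ndufs1, which holds several iron-sulfur clusters, had a log2 fold of -0.40 (adjusted p = 0.108 in limma), again without overlap. All 6 core members had negative folds, from -0.57 to -0.20. In 5 of them the MCAO arrays all lay below the sham arrays, against 15.2% of all genes. Among genes with a mean log2 intensity of at least 10 that share was 30%.

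The accessory subunits surround this core. Ndufa13, also known as GRIM-19, read 11.68, 11.43, 11.51, 11.57 and 11.85 after MCAO and 12.17, 12.30, 12.09 and 12.15 after sham surgery. Ndufa13 fell by 0.57 on the log2 scale (SE 0.19, limma adjusted p = 0.0452). Its single probe set is of a kind that can pick up related transcripts, and the call was lost in 8 of 9 fits that left out 1 array. Ndufb10, a subunit of the membrane arm named here after its value was seen, had the lowest fold of all members, -0.75, with MCAO arrays from 8.84 to 9.27 below sham arrays from 9.61 to 10. Its SE of 0.45 in the model over all groups left it uncalled (adjusted p = 0.353), while the 1-day arrays alone gave an adjusted p of 0.000783. Folds were negative in 27 of 28 accessory members, with a median of -0.30, and the exception was Ndufb1, at 0.25. In 13 of the 28 the MCAO arrays all lay below the sham arrays, against 15.2% of all genes. Among genes with a mean log2 intensity of at least 10 that share was 30%.

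Ndufaf3, an assembly factor that works on early intermediates of complex I, showed the lowest called fold. It read 7.33, 7.13, 7.69, 7.86 and 7.85 after MCAO and 8.33, 8.56, 8.11 and 8.26 after sham surgery, so the groups did not overlap. Ndufaf3 fell by 0.74 (SE 0.23, limma adjusted p = 0.0334), and its intensity fell by 40.1%. The assembly factors did not share a direction. Their median fold was -0.02, and 6 of 12 were positive, up to 0.25 for Ndufaf8. The calls of Ndufs3 and of Ndufaf3 were each lost in 5 of 9 fits that left out 1 array, namely MCAO array 1 or 2 or sham array 1, 2 or 4, with adjusted p-values up to 0.0926 and 0.12.

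The stretches of 120 bases before the start of 4 genes are shown because Ndufs3 and Ndufaf3 carried calls at 1 day and because Sdha and Sdhd of complex II are described after stroke and after LPS. They are RefSeq sequences of the build GRCm38.p6, all on the minus strand and written 5′ to 3′ towards the gene. They lie at chr2:90904722-90904841 for Ndufs3, chr9:108567437-108567556 for Ndufaf3, chr13:74350241-74350360 for Sdha and chr9:50603850-50603969 for Sdhd. Capitals mark matches, on either strand, to 7 motifs described in the next paragraph.
Ndufs3: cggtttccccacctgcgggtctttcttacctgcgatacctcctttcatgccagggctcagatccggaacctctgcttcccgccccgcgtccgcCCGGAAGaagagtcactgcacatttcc
Ndufaf3: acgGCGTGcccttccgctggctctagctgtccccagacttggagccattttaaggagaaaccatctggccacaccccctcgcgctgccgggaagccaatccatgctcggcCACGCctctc
Sdha: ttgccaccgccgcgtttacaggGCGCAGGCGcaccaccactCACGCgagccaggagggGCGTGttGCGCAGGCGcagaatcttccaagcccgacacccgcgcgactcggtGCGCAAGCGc
Sdhd: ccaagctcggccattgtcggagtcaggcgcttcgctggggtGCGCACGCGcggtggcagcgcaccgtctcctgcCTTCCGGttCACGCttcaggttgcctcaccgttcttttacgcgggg

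A RefSeq promoter, 250 bases before to 50 bases after the start, was found for 78 of 94 members, which had 83 such promoters. The motif GCGCANGCG, bound by nuclear respiratory factor 1 (NRF1), occurred in 27.7% of member promoters and in 6.25% of all 32851 promoters in the table. In Sdha it occurred 3 times, first at 98 bases before the start, and in Sdhd 1 time. The ETS motif CCGGAAG, which fits GABPA, was found in 26.5% of member promoters against 8.86%, and the Ndufs3 stretch holds it at 27 bases before the start. The YY1 motif AAGATGGCG was found in 8.43% against 1.4%, and the motif TNAAGGTCA of the receptor ERRA in 3.61% against 1.28%. The short hypoxia motifs ACGTG and GCGTG were found in 25.3% and 55.4% of member promoters, against 19.6% and 32.4% of all promoters, and the SP1 motif GGGGCGGGG in 14.5% against 11.4%. In Sdhd a GCGTG match on the minus strand overlaps the NRF1 match. The median 1-day fold was -0.37 for the 22 members with an NRF1 match and -0.28 for the 56 without, a description over genes and not a test. A match in this window is a run of letters and was not tested for binding.

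Complex II, which joins the citric acid cycle to the chain, had negative folds at 1 day for all 4 subunits, with a median of -0.39 and 0 calls. Sdha, the flavoprotein that oxidises succinate, read 12.31, 12.19, 12.44, 12.30 and 12.40 after MCAO and 12.77, 12.75, 12.50 and 12.79 after sham surgery, without overlap. Its log2 fold was -0.38 (limma adjusted p = 0.192). The iron-sulfur subunit Sdhb had a fold of -0.22, and the membrane anchors Sdhc and Sdhd had folds of -0.40 and -0.43, each with overlapping arrays. MCAO array 2 was low for Sdhc at 9.80, where the other MCAO arrays lay between 10.57 and 10.69. Folds of complex III were negative for 8 of 8 members, with a median of -0.25 and 0 calls. Uqcrc1, a core protein of that complex, had MCAO arrays from 11.43 to 11.72 below sham arrays from 11.98 to 12.19 (log2 fold -0.47, limma adjusted p = 0.139). Uqcrfs1, the Rieske iron-sulfur protein, had a fold of -0.28 with overlapping arrays.

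Complex IV had a median fold of -0.25 and 0 calls among 19 members, and its isoforms did not share a size. The widely expressed isoform Cox4i1 read 12.80, 12.86, 12.88, 12.80 and 13.08 after MCAO and 13.12, 13.42, 13.30 and 13.20 after sham surgery, which do not overlap (log2 fold -0.37, limma adjusted p = 0.53). Cox4i2, the isoform known to respond to low oxygen, stayed near the filter at 5.36 to 5.67 on all 9 arrays, with a fold of -0.04 and a 95% interval of -0.36 to 0.27. Ndufa4l2, which is induced by hypoxia in other cells, had a fold of -0.14 (95% interval -0.50 to 0.21). Folds of the isoform pairs were -0.07 for Cox6a1 and 0.26 for the muscle form Cox6a2, -0.30 for Cox7a2 and -0.38 for the muscle form Cox7a1, and -0.25 for Cox8a and 0.00 for the muscle form Cox8b. Cox7a2l, which joins complexes III and IV into larger assemblies, had a fold of -0.17, and Ndufa4 one of -0.32. Of these, the arrays of Cox4i1 and of Cox7a1 did not overlap, and Cox7a1 lay at 4.64 to 5.43, near the filter.

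Complex V had a median fold of -0.27 and 0 calls among 17 members. Atp5a1 and Atp5b encode the alpha and beta subunits of the catalytic head. Atp5a1 had MCAO values of 13.70, 13.44, 13.68, 13.70 and 13.64 against sham values of 13.87, 13.96, 13.75 and 13.94, a fold of -0.25 without overlap. Atp5b had a fold of -0.28 with overlapping arrays. In 9 of 17 members the MCAO arrays all lay below the sham arrays, against 15.2% of all genes. Among genes with a mean log2 intensity of at least 10 that share was 30%. Atp5g1, which encodes the membrane ring, was the exception in direction, at 0.10.

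**Figure D2:**
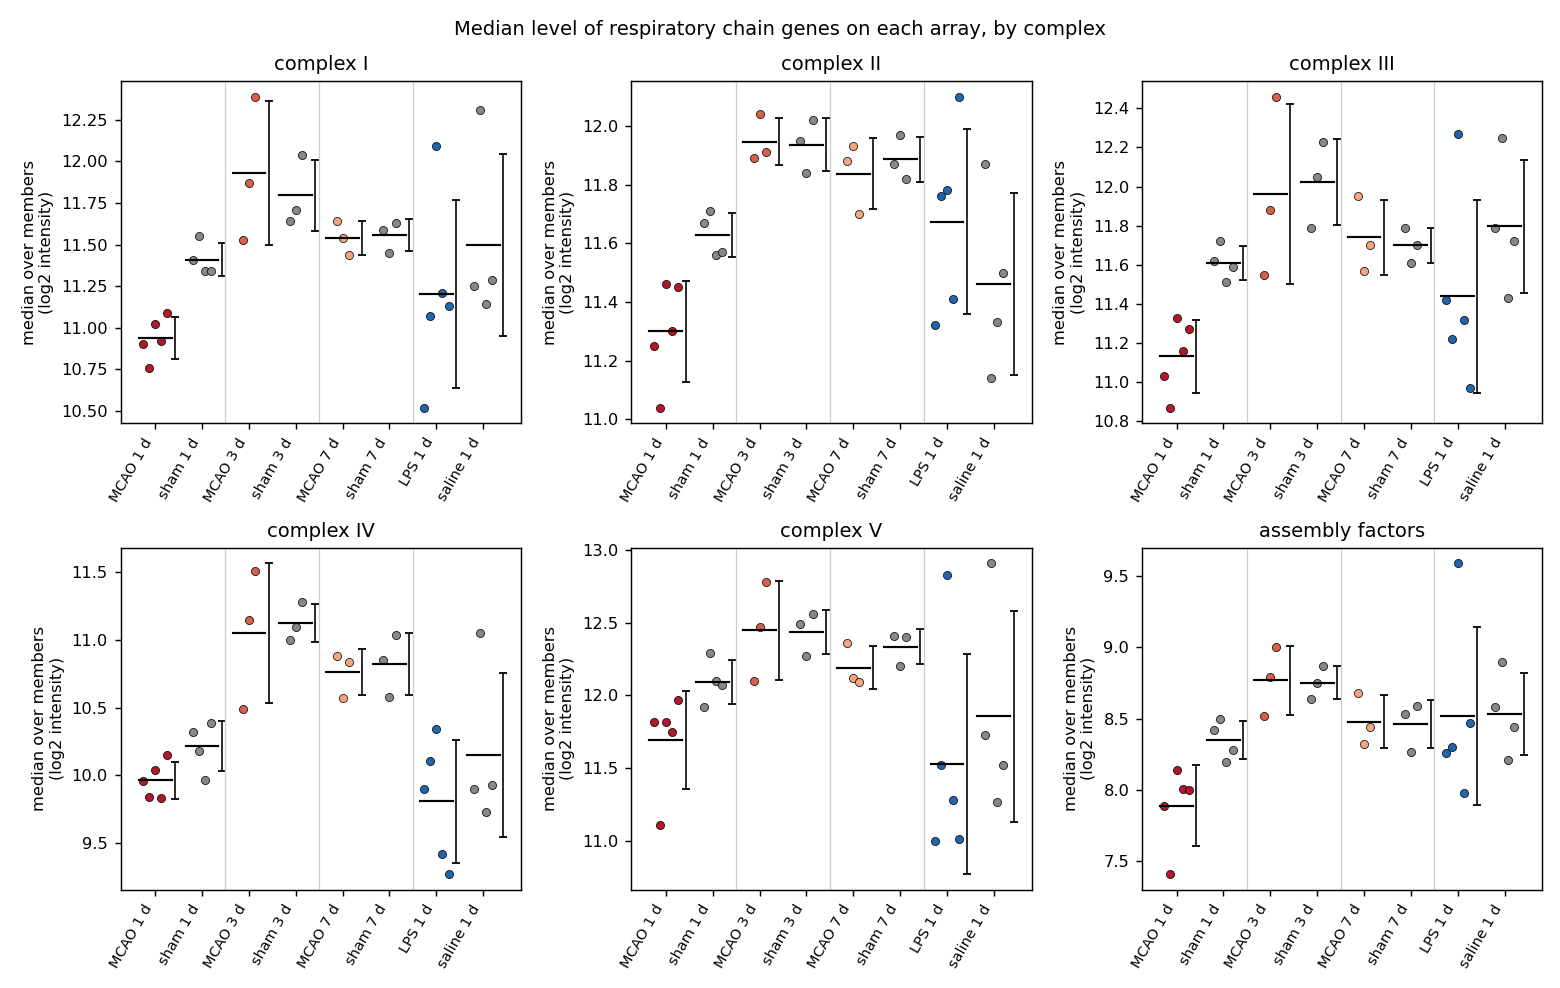
Median log2 intensity over the members of each complex on each array (points), with the group mean (line) and SD (bar beside it), for the 8 groups. At 1 day after MCAO the medians of complexes I, II and III lay below all sham medians, while complexes IV and V overlapped, and LPS and saline arrays spread widely. The array medians of the assembly factors also lay below, but such a median follows only the genes in the middle of their levels. Their folds did not share a direction, and the median of these folds ran from -0.07 to 0.05 when 1 array was left out.

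Over all members, the array medians at 1 day ran from 10.57 to 11 after MCAO and from 11.06 to 11.29 after sham surgery. MCAO array 2 was the lowest of its group for 76 of 94 members, with a median difference of -0.32 from the other MCAO arrays. Leaving out 1 array at a time moved the median fold of the members only between -0.31 and -0.21. The summed level of 14 astrocyte markers was also lower after MCAO on the same arrays. It ran from 170417 to 191713 (linear intensity), against 201698 to 211974 after sham surgery. Non-overlapping lower arrays were found for 8 of 14, against 15.2% of all genes. Among genes with a mean log2 intensity of at least 10 that share was 30%. Of the 14, Gjb6 and Slc1a3 fell by 0.63 and 0.52 on the log2 scale, while Gfap, a filament protein of reactive astrocytes, rose by 1.69 (limma adjusted p = 0.00486), with MCAO arrays from 13.92 to 14.24 above sham arrays from 12.03 to 13.05. Aldh1l1, whose promoter drives the sorted reporter, ran from 12.31 to 12.62 after MCAO and from 12.71 to 12.85 after sham surgery. Summed neuron markers ran from 3369 to 10440 and from 3553 to 13270, and oligodendrocyte markers from 12852 to 29505 and from 17449 to 38510, both with overlap. The only genes called of 10 oligodendrocyte markers were Aspa and Cnp, which fell by 1.17 and 0.69, Cnp with overlapping arrays. Summed markers of oligodendrocyte precursors overlapped, at 1204 to 1692 and 1199 to 1949. Cacng4 was the only gene called of 7 precursor markers and fell by 1.12 (limma adjusted p = 0.012). Summed microglia and macrophage markers also overlapped, at 1045 to 1885 and 976 to 1764, and those of neutrophils and monocytes did not, at 470 to 519 against 387 to 427. Cd68, a lysosomal protein of macrophages and microglia, rose by 1.98 (limma adjusted p = 9.14e-06). It was the only gene called of the 12 measured in its list. P2ry12 of that list ran from 5.58 to 6.49 after MCAO and from 6.21 to 7.06 after sham surgery. Of 7 measured neutrophil and monocyte genes, Il1r2 and S100a8 each rose by 0.87. Summed endothelial markers overlapped, at 1726 to 10371 and 3199 to 10892, as did those of pericytes and smooth muscle, at 3249 to 7651 and 5344 to 8461. Vwf was the only gene called of 11 endothelial markers and rose by 1.57 (limma adjusted p = 0.0395, overlapping arrays). Cldn5, also endothelial, ran from 8.80 to 11.61 after MCAO and from 9.74 to 11.88 after sham surgery. Tagln was the only gene called of 8 pericyte and smooth muscle markers and rose by 1.53 (limma adjusted p = 0.00891). The part of these shifts in the members' folds was not tested.

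Genes near the chain in the pathway were described from related lists at 1 day after MCAO. The shares beside these counts are 6.17% of all genes called lower and 6.49% called higher. The median fold over all genes is given above with that of the members. Of 20 genes of the citric acid cycle and pyruvate entry, 1 was called lower and 0 higher, the median fold was -0.36, and 19 folds were negative. The called gene was Pdhb, a subunit of pyruvate dehydrogenase (log2 fold -0.54, adjusted p = 0.0484). Of 16 electron carriers and subunits outside the symbol rule, 3 fell, led by Coq9 of ubiquinone synthesis (-0.88, adjusted p = 0.0091). Of 37 further assembly factors, Cox10, which makes the haem of complex IV, fell by 1.18 (adjusted p = 0.00023) and Sco1, which delivers its copper, rose by 0.54. Of 25 genes of mitochondrial biogenesis, Ppargc1a, a coactivator that drives respiratory genes, fell by 1.43 (adjusted p = 0.0102), and the related coactivator Pprc1 rose by 1.54 (adjusted p = 9.3e-06).

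Genes of glycolysis moved in both directions, with 2 of 14 called higher and 3 called lower. Over all genes 6.49% were called higher and 6.17% lower, shares that also stand beside the next lists of this paragraph. Hk2, a hexokinase, rose by 1.08 and Pfkfb3, an activator of phosphofructokinase, by 0.89, whereas Pfkl fell by 0.93. In the list of hypoxia and the pyruvate switch, 4 of 18 genes fell and 0 rose, among them Pdk2, a kinase that inhibits pyruvate dehydrogenase, by 1.27, Pdp2, a phosphatase that activates it, by 1.23 (adjusted p = 9.01e-05) and Ldhb, a lactate dehydrogenase subunit, by 0.72. The 76 measured genes of the mitochondrial ribosome had a median fold of 0.10, with 45 positive folds and 2 calls, Mrps6 (rose by 2.30) and Mrps18b (rose by 1.41). Of 33 genes of mitochondrial import, fusion, fission and turnover, 2 rose and 1 fell, with a median of 0.05. Among 10 genes of superoxide defence and uncoupling, Gpx1, a glutathione peroxidase, rose by 2.03 and the carrier Slc25a14 fell by 0.58. The subunits encoded in the mitochondrial genome were searched under 26 symbols, of which 1 was measured, with a fold of -0.15.

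At 3 days after MCAO, 0 of 94 members were called, against 0.61% of all genes called higher and 0.0636% called lower. At an unadjusted p under 0.05, 0 members were higher and 1 lower, against 5.56% and 3.97% of all genes. The median fold was 0.05, against 0.01 over all genes, and 58 of 94 were positive. Arrays did not overlap for 2 members with higher and 1 with lower values, against 5.74% and 6.94% of all genes. Uqcrh, the hinge protein of complex III, read 11.49, 11.31 and 11.68 after MCAO and 11.21, 11.20 and 11.11 after sham surgery (log2 fold 0.32, limma adjusted p = 0.999). Ndufs4, an accessory subunit of complex I, read 10.07, 9.95 and 10.05 against 9.75, 9.68 and 9.78 (0.29, limma adjusted p = 0.841). Ndufb4 read 4.91, 5.04 and 4.91 against 5.67, 5.73 and 5.36, which lie near the filter (-0.63, limma adjusted p = 0.229). These 3 were not called. Ndufs3 had a fold of 0.05 (95% interval -0.38 to 0.48), Ndufa13 one of 0.12 (-0.36 to 0.59) and Ndufaf3 one of 0.10 (-0.48 to 0.68). Of the isoforms, Cox4i2 had a fold of 0.18, Cox6a2 of 0.17, Cox7a1 of 0.36, Cox8b of 0.44 and Cox7a2l of 0.35, all uncalled and with overlap. The median fold was 0.30 between the bright arrays of the groups, 1 each, and -0.03 between the dim arrays, 2 each.

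At 7 days 0 of 94 members were called, where 0.0254% of all genes were called higher and 0% lower, and 0 members passed an unadjusted p under 0.05 in either direction, against 2.24% of all genes higher and 0.382% lower. The median fold was -0.01, the same as over all genes. Arrays did not overlap for 4 members with higher and 6 with lower values, against 9.65% and 6.68% of all genes. Cox6b2, known as the testis isoform of its subunit, read 6.09, 5.95 and 6.54 after MCAO and 5.64, 5.21 and 5.88 after sham surgery (log2 fold 0.61, limma adjusted p = 1). The other uncalled folds without overlap included 0.14 for Ndufc2, 0.10 for Cox5a, -0.24 for Cox6a2, -0.23 for Ndufc1 and -0.21 for Ndufa4. The genes called at 1 day had folds of 0.01 for Ndufs3 (95% interval -0.42 to 0.44), -0.12 for Ndufa13 (-0.60 to 0.35) and 0.03 for Ndufaf3 (-0.55 to 0.61). The 3 MCAO arrays of Ndufa13 still lay below the 3 sham arrays, at 12.27, 12.35 and 12.20 against 12.39, 12.40 and 12.40.

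**Figure D3:**
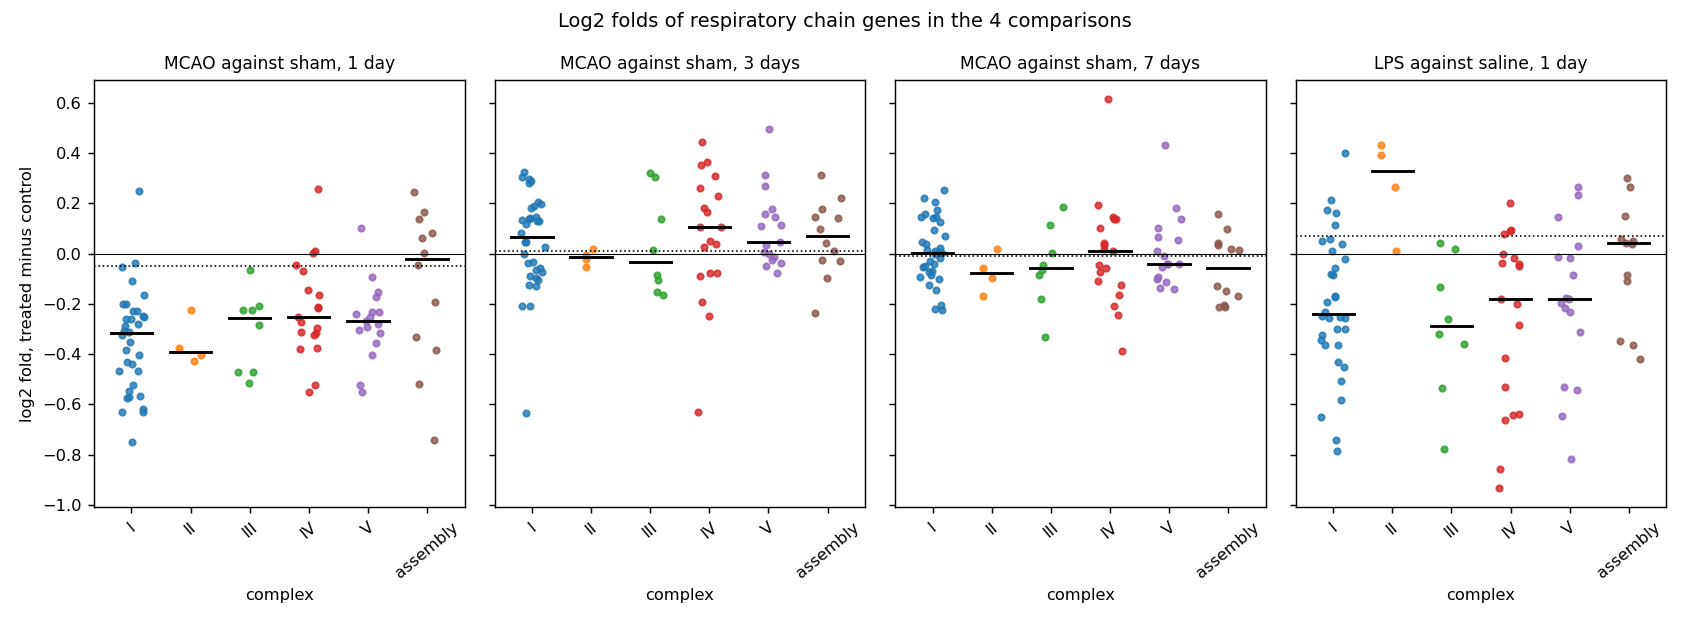
Log2 folds of the members by complex (points) with the median of each complex (line) in each of the 4 comparisons, and the median over all genes tested (dotted line). At 1 day after MCAO the medians of the 5 complexes lay between -0.39 and -0.25, and after LPS complex II lay at 0.33 while complexes I, III, IV and V lay between -0.29 and -0.18.

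Whether the stroke effect on a member differed between days was tested as a difference of effects. Between 3 days and 1 day, 0 members were called, against 0.00636% of all genes, and 85 of 94 differences were positive with a median of 0.37, against 0.06 over all genes. At an unadjusted p under 0.05, 5 members were higher and 1 lower, against 3.24% and 2.75% of all genes. Between 7 days and 1 day, 0 members were called, against 0.356% of all genes, and 81 of 94 differences were positive with a median of 0.26, against 0.05. There, 3 members passed an unadjusted p under 0.05, all higher, against 4.65% of all genes higher and 3.95% lower. Between 7 and 3 days 0 members were called, against 0% of all genes, the median was -0.05, and 0 members passed an unadjusted p under 0.05, against 0.814% of all genes higher and 0.928% lower. These differences share the MCAO and sham arrays of a day, and the test did not separate any single member's effect at 1 day from that at a later day. In a model of the compared groups alone, 5 members were called higher and 1 lower between 7 days and 1 day, against 5.18% and 4.6% of all genes.

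After LPS, 0 of 94 members were called, against 2.37% of all genes called higher and 0.744% called lower. At an unadjusted p under 0.05, 1 member was higher and 5 were lower, against 10.2% and 6.13% of all genes. Arrays overlapped for all 94 members, whereas 1.88% of all genes had non-overlapping higher and 0.865% non-overlapping lower arrays. The median fold was -0.17, against 0.07 over all genes, and 64 of 94 folds were negative. Complex II ran the other way, with positive folds for 4 of 4 subunits and a median of 0.33. Sdha read 12.79, 12.98, 12.10, 12.34 and 12.68 after LPS and 12.88, 11.78, 12.29 and 12.31 after saline (log2 fold 0.27, 95% interval -0.10 to 0.63). Sdhc read 11.23, 10.63, 10.49, 10.93 and 11.69 after LPS and 9.96, 10.51, 10.87 and 10.91 after saline (0.43, -0.01 to 0.88). Sdhd had a fold of 0.39 (-0.16 to 0.95) and Sdhb one of 0.01 (-0.43 to 0.45). The groups overlap in each, and the highest Sdhd values were 11.81 on LPS array 2 and 11.74 on saline array 1.

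Median folds after LPS were -0.24 for complex I, -0.29 for complex III, -0.18 for complexes IV and V and 0.04 for the assembly factors. Cox4i1 read 12.86, 13.12, 13.60, 12.41 and 11.20 after LPS and 13.53, 13.68, 12.85 and 13.15 after saline, with a fold of -0.66 (limma adjusted p = 0.242). LPS array 5 was the lowest by more than 1 log2 unit. Cox7a2 had a fold of -0.86, Cox7a1 of -0.64, Cox6a1 of -0.53, Uqcrc1 of -0.36 and Uqcrfs1 of -0.32, all uncalled. Folds of Cox4i2 (-0.04), Cox6a2 (0.00), Cox7a2l (-0.04), Ndufa4 (-0.02) and Ndufs1 (0.06) lay nearer to 0. Folds of Ndufv1 (-0.17), Cox8a (-0.20), Atp5a1 (0.15), Atp5b (0.23), Ndufa4l2 (0.20) and Cox8b (0.08) were also uncalled. The lowest and the highest folds, chosen after their values were seen, were those of Cox5a (-0.93), whose LPS array 5 read 9.27 against 12.24 to 13.37 on the other LPS arrays, and of Sdhc.

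The sign of the members' median fold after LPS differed between the sets of arrays, but it lay below the all-gene median in both. Within the bright arrays, 3 LPS and 2 saline, the median fold was -0.34, against -0.04 over all genes. There, 79 of 94 members were negative, against 8526 of 15726 genes. Within the dim arrays, 2 and 2, the median fold was 0.13, against 0.26 over all genes. In that set 33 of 94 members were negative, against 4822 of 15726 genes. The median for complex II was 0.33 in the bright and 0.25 in the dim arrays. Of the 2 dim LPS arrays, array 5 stood apart over all genes. Its median intensity was 94, where all other arrays ran from 68 to 73, and 35.5% of all genes on it lay over 2-fold away from the average of the remaining LPS arrays. Its summed astrocyte markers were 100319, against 147137 to 205405 on the other LPS arrays. The part of these values in the LPS folds was not tested. Without LPS array 3, 4 members were called lower after LPS, against 2.11% of all genes. That fit kept saline array 2, which was the highest of its group for 66 of 94 members. With the set as a covariate the count of members called lower was 2, against 2.01%. Related genes called after LPS included Cox10, which fell by 1.36 (limma adjusted p = 0.000166), and Hk2, which rose by 1.13, both without overlap. Idh2, the mitochondrial isocitrate dehydrogenase, rose by 0.86, Gpx1 by 1.6 and the mitophagy receptor Bnip3 by 1.02, each with overlapping arrays. Over all genes, 2.37% were called higher after LPS and 0.744% lower.

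Whether stroke and LPS differed in their effect at 1 day was tested over both pairs of groups. No member was called (0 of 94, against 1.39% of all genes called either way), and at an unadjusted p under 0.05 the MCAO effect was lower for 5 members and higher for 0, against 7.94% and 4.84% of all genes. The median difference was -0.10, against -0.12 over all genes. For complex II it was -0.73, with 4 of 4 differences negative, 3 of them past the unadjusted threshold, and the smallest adjusted p of the 4 was 0.189.

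**Figure D4:**
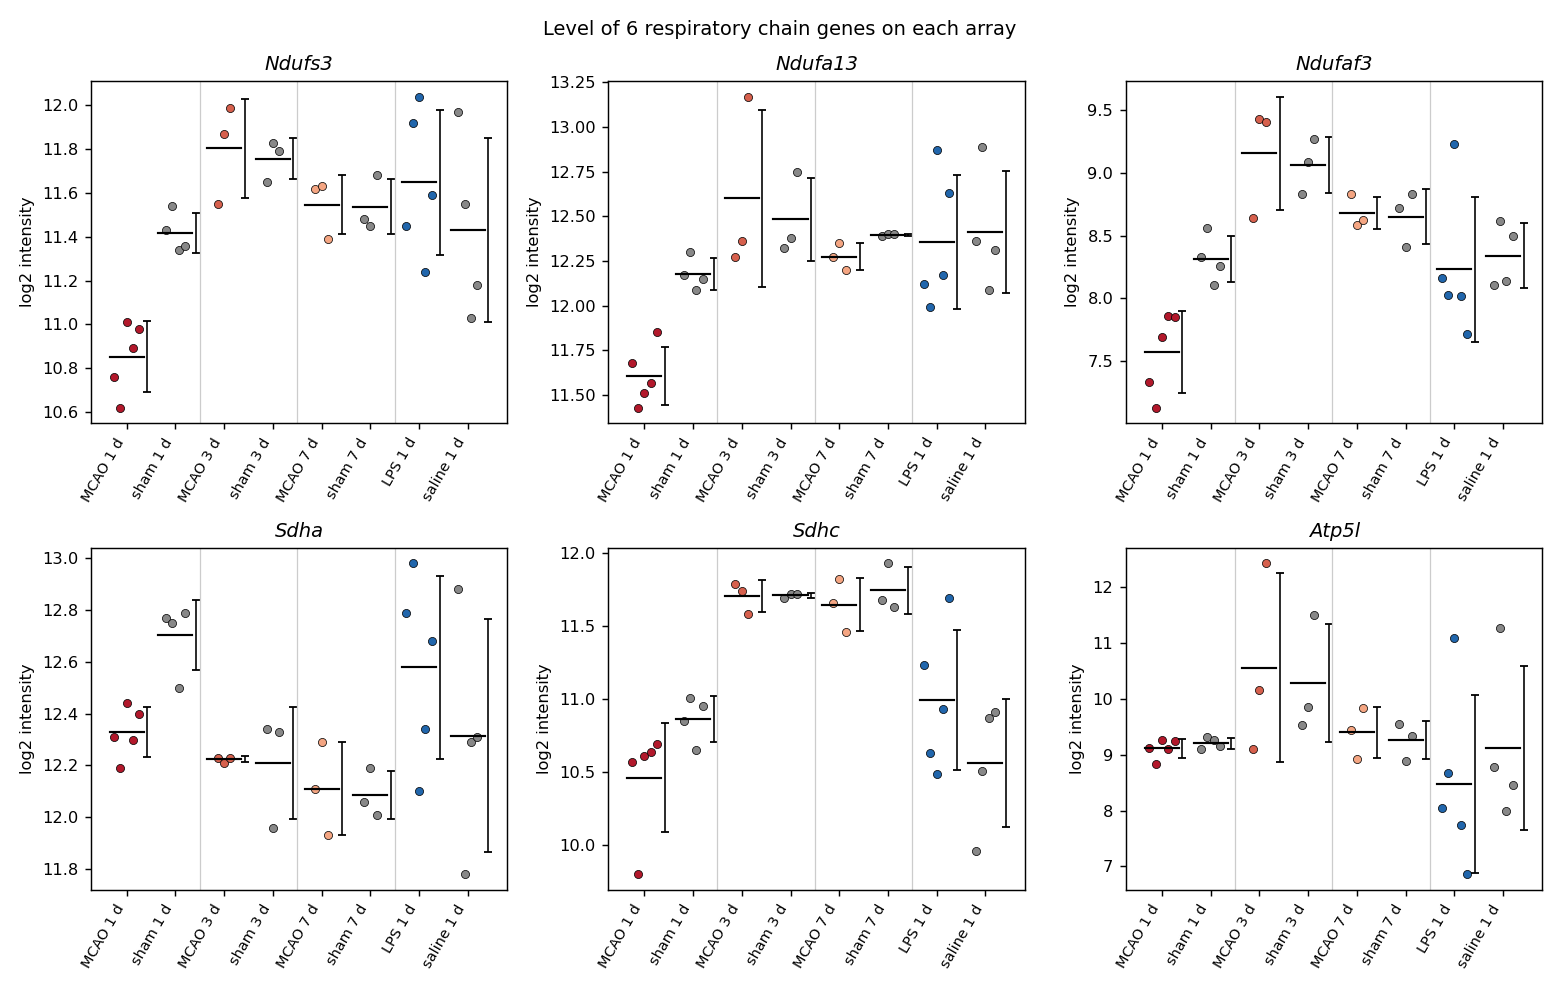
Log2 intensity on each array of Ndufs3, Ndufa13, Ndufaf3, Sdha, Sdhc and Atp5l in the 8 groups, with the group mean (line) and SD (bar beside it). MCAO arrays of the genes called at 1 day lie below the sham arrays of that day, Sdhc has 1 low MCAO array at 9.80, and Atp5l ranges from 6.86 to 11.09 within the LPS group. Levels are not comparable between genes, since each has its own probes.

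Members differed widely in how far they varied between arrays of a group. The residual SD was highest for Atp5l, subunit g of the ATP synthase, at 1.08, followed by Uqcr10, a small subunit of complex III, at 1.01. It was lowest for Ndufv1 at 0.20, and it was 0.21 for Cox4i2 and 0.23 for Atp5a1. Its median was 0.29 for the 6 core members of complex I, 0.48 for the 28 accessory ones, 0.31 for the catalytic head of complex V and 0.53 for its stalks and membrane part. The highest Atp5l values were 12.43 on MCAO array 3 and 11.50 on sham array 3 at 3 days, 11.09 on LPS array 3 and 11.27 on saline array 2, where the other arrays of those groups ran from 6.86 to 10.16. Sdha did not follow them, since it read 12.10 on LPS array 3 and 11.78 on saline array 2, the lowest of each group. On LPS array 3, 50% of members lay over 2-fold away from the average of the remaining LPS arrays, against 16.7% of all genes. On saline array 2 these shares were 41.5% and 11.6%, and on MCAO array 3 at 3 days they were 22.3% and 12.4%. MCAO array 1 at 3 days, the lowest of its group for 75 of 94 members, had shares of 24.5% and 5.67%. LPS array 1 had shares of 21.3% and 9.62%, whereas on LPS array 5 the members' share of 25.5% lay below the 35.5% of all genes. On the 1-day surgery arrays at most 1 of 94 members differed that far.

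**Figure D5:**
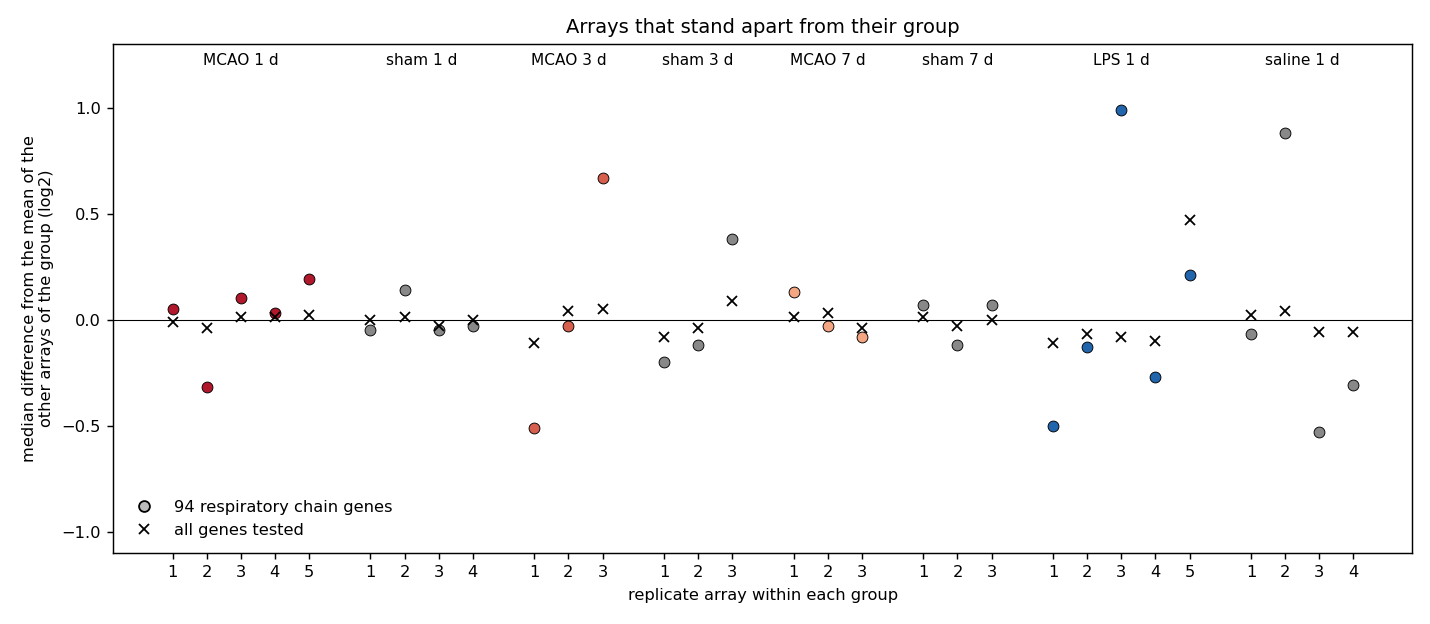
Median difference of each array from the mean of the other arrays of its group, over the 94 genes (circles) and over all genes tested (crosses), in log2 units. LPS array 3 at 0.99, saline array 2 at 0.88 and MCAO array 3 at 3 days at 0.67 lie highest for the members, while all genes on these arrays differ by -0.08, 0.04 and 0.05.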

How the data were processed

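The authors deposited 1 intensity per probe set and array, normalised with RMA (version not stated) per the submitters' processing notes, as whole numbers on the linear scale. Log2 was taken here. Array annotation gave 34945 of 45037 probe sets 1 gene symbol. A gene's value came from its probe set of highest mean across the 30 arrays. Genes were kept if their log2 intensity reached 5 on 3 or more arrays. Probe set design and RMA's summary decide what a value can show, and the number of arrays limits the precision.

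The test was limma 3.58.1 (R 4.3.3), 1 model over 8 groups with moderated variances on 22 residual plus 4.55 prior degrees of freedom, 2-sided, with Benjamini-Hochberg adjustment over 15726 genes. It was checked on simulated data, in which arrays varied independently and each gene had the same SD in all groups. That check could not show what unequal scatter between groups does to the calls. "Rose" and "fell" are used of genes at an adjusted p under 0.05. The members and the lists were chosen with earlier results of these data known. Named were the called members, otherwise those without overlap between groups (3 each way), a fixed set of core and isoform genes, and up to 3 called genes per related list. Of 185 probe sets with a fitting symbol, 53 genes had more than 1.

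In the sample names, the 1-day MCAO and sham arrays share the numbers 2 to 5, and the labels do not say that equal numbers mean a pair. Deviations of same-numbered arrays correlated at 0.23, 0.19, 0.50 and 0.16 over all genes. Title numbers 1 to 4 gave 0.15, -0.10, -0.24 and -0.11. Same-numbered arrays gave 0.03 to 0.21 at 3 days and 0.00 to 0.37 at 7 days. Alternatives are given in the closing section, as are those added after seeing the data.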

Additional observations from a re-analysis of the deposited data

Results flagged for a closer look

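In groups of 4 to 10 arrays, 16 of 152 tested sets of values held an array far from the others of its group. Chance gives about 1 in 20 per set. The sets were read from the same arrays and are not independent, so the 16 are not separate events. Saline array 2 was high in the array median of complex I at 12.31, where the other saline arrays ran from 11.14 to 11.29, and of complex IV at 11.05 (others 9.73 to 9.93). It was also high for Cox6b2 at 7.43 (others 5.25 to 5.61) and for Cox8a at 11.05 (others 9.87 to 9.93). LPS array 3 was high in the array median of complex V at 12.83 (others 11 to 11.52). Saline array 1 was high for Sdhd at 11.74 (others 10.25 to 10.43).

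LPS array 5 was low for Cox5a at 9.27 (others 12.24 to 13.37), for Ndufc1 at 8.64 (others 11.54 to 12.41) and for Uqcrfs1 at 11.28 (others 12.47 to 12.72), and high for Ndufb4 at 6.36 (others 5.00 to 5.36). MCAO array 2 at 1 day was low in the array median of complex V at 11.11 (others 11.75 to 11.97), for Atp5a1 at 13.44 (others 13.64 to 13.70) and for Sdhc at 9.80 (others 10.57 to 10.69). MCAO array 5 at 1 day was high for Cox4i1 at 13.08 (others 12.80 to 12.88). Of the 1-day sham arrays, array 2 was high for Cox7a1 at 5.43 (others 5.17 to 5.21) and array 3 was low for Sdha at 12.50 (others 12.75 to 12.79). Array 3 of that group also had the highest summed neuron markers, 13270 in linear intensity.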

How the results depend on the processing

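Shares in parentheses are those of all genes called the same way under the same setting. The count of members called lower at 1 day after MCAO was 3 in the model over all groups (6.17%). It was 36 with the compared groups alone (18.4%), 32 with array weights (22.2%) and 20 with the title numbers as a replicate block (13.3%). With the description numbers as a replicate block of the 1-day surgery arrays it was 36 (17.9%). It was 38 with the 1-day and 7-day surgery arrays alone (18.8%) and 5 with the mean of probe sets (7.35%). The count was 5 with the set of arrays as a covariate (7.72%) and 0 at an adjusted p under 0.01 (3.05%). Leaving out 1 array gave 0 to 3 (3.94% to 5.95%). Members called higher at 1 day numbered 1 with array weights (17%) and 1 with the 1-day and 7-day surgery arrays alone (15.1%). At 3 days, members called lower numbered 1 with array weights (5.13%) and 1 with LPS array 5 out of the model (0.369%). After LPS, members called lower numbered 1 with quantile normalisation (1.11%) and 2 with the set of arrays as a covariate (2.01%). They numbered 0 to 4 when 1 array was left out (0.254% to 2.11%), and members called higher numbered 2 with array weights (7.4%). For the MCAO effect minus the LPS effect, array weights gave 10 lower (8.98%) and 1 higher (4.52%). The set as a covariate gave 1 lower (1.23%), and leaving out 1 array gave 0 to 1 lower (0.216% to 1.72%). For 3 days minus 1 day, array weights gave 1 lower (0.471%). For 7 days minus 1 day, members called higher numbered 13 with array weights (11.6%), 5 with the compared groups alone (5.18%) and 3 with the title replicate block (4.05%). Members called lower there numbered 1 with array weights (8.43%) and 1 with the compared groups alone (4.6%). The block changed no other count by over 1.5 times, and the cause of these moves was not tested.

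The median fold of the members moved by less than its spread in all 92 alternatives, and no called result changed its direction. The medians at 3 days, at 7 days and after LPS, which had no calls, took both signs. Leaving out 1 array gave medians of -0.31 to -0.21 at 1 day, -0.17 to 0.28 at 3 days, -0.09 to 0.02 at 7 days and -0.35 to 0.05 after LPS. The Ndufa13 call was also lost with robust trended variances (adjusted p = 0.0525) and with all probe sets tested (adjusted p = 0.0505), and Ndufa13 has no value without shared probe sets. The set of arrays, its subsets, the 1-day and 7-day arrays alone, the loss of LPS array 3 with saline array 2, and the genes of high intensity were alternatives chosen after seeing the data.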

Other observations

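Few genes of the related lists were called outside the 1-day stroke comparison. At 3 days after MCAO, Gpx1 rose by 1.76 (limma adjusted p = 0.0426) and Mrps6, of the small subunit of the mitochondrial ribosome, rose by 1.68 (limma adjusted p = 0.0169). The 76 measured genes of the mitochondrial ribosome had a median fold of 0.15 at that time, with 59 positive folds, against 0.01 over all genes. At 7 days 0 genes of the 10 related lists were called, against 0.0254% of all genes called higher and 0% called lower. These lists leave out the cell type markers, of which C1ql1 of oligodendrocyte precursors rose by 1.81 at 7 days (limma adjusted p = 6.21e-05). The summed precursor markers then ran from 3059 to 3852 after MCAO and from 1450 to 1818 after sham surgery. Tagln rose by 2.46 at 3 days, and Gfap and Rgs5, both with overlapping arrays, rose by 1.87 and 1.98 after LPS. The part of these markers in the members' folds was not tested. Folds of the 20 genes of the citric acid cycle and pyruvate entry had medians of -0.09 at 3 days, -0.01 at 7 days and -0.17 after LPS.

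After LPS, the transcription factor Yy1, whose motif was counted in the promoters, rose by 0.61 (limma adjusted p = 0.0209), and Gabpb2, a partner of GABPA, fell by 0.53 (limma adjusted p = 0.0362). Pfkfb2, a glycolytic regulator, fell by 0.86 after LPS and by 0.82 at 1 day after MCAO. Timm17a, of the import machinery of the inner membrane, and Mrpl41, of the large subunit of the mitochondrial ribosome, rose by 0.69 and 1.5 after LPS, both with overlapping arrays.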
